A study of Mus musculus with 2 samples.

Results

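Cluster 15 is the group of cells to which the authors gave the number 15 in their own clustering of colon leukocytes, and it was taken from that column of the deposited cell table. It holds 69 of 6886 cells, 32 of them from 5XFAD mice and 37 from wild-type (WT) mice. The name under which it was examined, a rare mixed population, was checked against marker genes, and the cells carried the markers of at least 4 lineages: macrophages and monocytes, colon epithelium, endothelium and fibroblasts. Colons of female mice aged 9 months were dissociated with a lamina propria kit, live cells positive for CD45 (the surface protein of leukocytes, encoded by Ptprc) were sorted, and single-cell RNA was sequenced from the 3′ end. The 5XFAD line is transgenic for human genes, APP among them, that bear mutations of familial Alzheimer disease and are driven by the Thy1 promoter of neurons, and the WT mice were littermates without them. Each genotype is represented by a single library made from 3 pooled mice, so no difference between the genotypes has a replicate check, no test was made, and every interval given covers counting error only.

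Macrophages of the gut lamina propria take up dying cells and microbes, and are replenished from blood monocytes that enter the tissue through CCR2. They make complement C1q, lysozyme and apolipoprotein E in quantity. Colonocytes (the absorptive cells of the colon lining), capillary and lymphatic endothelium and fibroblasts are not leukocytes and do not normally carry CD45 on their surface.

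The cells of cluster 15 held 190686 UMIs in 5XFAD and 220907 in WT; a UMI (unique molecular identifier) is 1 counted RNA molecule. Their median depth was 5528.5 UMIs per cell in 5XFAD and 5758 in WT, against 5085 in all other clusters together. They made up 0.929% of the 5XFAD library (exact Clopper-Pearson 95% interval 0.637 to 1.31), and in WT the share was 1.07% (0.758 to 1.48), with overlapping intervals. Cells with 2500 genes or more occurred in WT alone, 4 in cluster 15 and 102 elsewhere. Of 3 cell barcodes found in both libraries, 0 belonged to cluster 15. Scrublet, a doublet caller, marked 7 of all 6886 cells and 0 of cluster 15, which is too few to be informative, so cells that carry markers of several lineages are counted instead.

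The genes that led cluster 15 over all other clusters pooled came from 3 of these lineages. Since the cluster was built from these genes, their values describe it and test nothing. Lyz2, which encodes lysozyme of macrophages and monocytes, had 1844 UMIs in 50 of the 69 cells. That is 4480 UMIs in 1000000 (counts per 1000000, CPM) against 5.45 CPM elsewhere, or 822-fold, and a Lyz2 UMI was found in 2.89% of the T cell and innate lymphoid cells, which should lack the gene. Per cell, Lyz2 ran from 0 to 177 UMIs in 5XFAD (median 6.5) and from 0 to 194 in WT (median 19). The cells of both libraries therefore range from none to many Lyz2 molecules.

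The 3 chains of complement C1q, which are encoded side by side, were all among the 20 leading genes. C1qa (chr4:136895917-136898803, minus strand, mm10) had 485 UMIs in 34 cells, C1qb (chr4:136880129-136886187) 525 UMIs in 31 cells and C1qc (chr4:136889804-136893065) 260 UMIs in 26 cells. Cluster 15 held 92.1% of all C1qb UMIs of the series. C1qb ran from 0 to 49 UMIs per cell in 5XFAD and from 0 to 68 in WT, and it was present in 14 of 32 and 17 of 37 cells. The 250 bases before the RefSeq start of C1qb and C1qc are printed because both are leading genes, and C1qa is named only. The RefSeq start of C1qc lies inside the GENCODE gene given above, so 151 bases of its window overlap that gene. The sequences come from RefSeq on GRCm38.p6, read 5′ to 3′ on the gene's strand (minus for both), and capitals mark GAGGAA or its reverse complement TTCCTC, the core letters bound by PU.1, the myeloid transcription factor.
C1qb, chr4:136886201-136886450: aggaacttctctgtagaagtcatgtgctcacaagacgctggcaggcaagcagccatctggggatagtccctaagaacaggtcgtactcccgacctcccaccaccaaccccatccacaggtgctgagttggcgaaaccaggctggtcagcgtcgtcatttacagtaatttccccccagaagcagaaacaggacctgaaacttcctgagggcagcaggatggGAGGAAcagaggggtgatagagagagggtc
C1qc, chr4:136892915-136893164: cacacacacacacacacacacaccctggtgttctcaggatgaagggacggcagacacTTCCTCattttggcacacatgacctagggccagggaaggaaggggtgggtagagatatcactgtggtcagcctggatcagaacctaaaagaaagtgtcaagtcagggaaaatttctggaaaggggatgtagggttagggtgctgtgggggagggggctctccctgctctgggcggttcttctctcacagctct
Each of these windows holds the letters once, on opposite strands. Searched on both strands, 7639 of 32851 windows of the same length (23.3%) hold them, so a match is a description and not a binding site.

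Other leading genes of the macrophage lineage were Cd14, the lipopolysaccharide co-receptor (389 UMIs, 37 cells) and Mrc1, the mannose receptor (96 UMIs, 25 cells). The complement C5a receptor gene C5ar1 (65 UMIs, 24 cells), the lectin genes Mgl2 and Clec4e, the chemokine genes Ccl12 and Pf4, Tgfbi, Cd300c2 and the interferon-inducible Ifi207 were among them too. All 13 macrophage markers with enough UMIs were at least 2-fold higher than elsewhere, and over all 12481 genes measured this held for 32.5%. The summed macrophage list stood at 18115 CPM against 592 CPM elsewhere. It was 15082 CPM in 5XFAD and 20733 CPM in WT, so both libraries carried it.

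The remaining leading genes belonged to cells that are not leukocytes. Fabp4, a fatty acid carrier of capillary endothelium, had 233 UMIs in only 11 cells, and Cavin2, Gng11 and Tm4sf1, which are also common in endothelium, were found in 10, 15 and 11 cells. Car1, the colonocyte carbonic anhydrase, had 605 UMIs in 12 cells, of which 1 cell alone held 210. Per cell, Car1 ran from 0 to 210 UMIs in 5XFAD and from 0 to 100 in WT, with 6 cells above 0 in each.

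At the other end stood genes of lymphocytes. Trbc2, the constant region of the T cell receptor beta chain, had 1 UMI, and Cd3g and Icos had 0. Trbc1, Xcl1 and Ikzf3 had 1, 1 and 3 UMIs. Of the B cell genes, Cd79a was found in 11 cells with 50 UMIs, or 121 CPM against 1447 CPM elsewhere. Gramd3 and Dmxl1, at 4.86 and 29.2 CPM against 160 and 421 CPM elsewhere, were also among the 10 lowest.

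Whether the lineages sat in separate cells or in the same cells was then asked cell by cell. A lineage was counted as present where a cell had UMIs of at least 3 distinct markers of its list. By this count 46 cells carried the macrophage list (20 in 5XFAD, 26 in WT), against 0.249% of cells in other clusters and 0.795% of T cell and innate lymphoid cells, whose median depth of 5653 UMIs was close to the 5741 of cluster 15. The colonocyte list was present in 17 cells (9 and 8) against 0.0733% elsewhere, and the endothelial list in 11 cells (7 and 4) against 0 of 6817, which allows a share of up to 0.0440%. The fibroblast list was present in 4 cells (3 and 1) against 0.0293% elsewhere. The B cell list was present in 11 cells (1 and 10; 15.9%), against 7.23% of T cell and innate lymphoid cells. The T cell list was present in 0 of 69 cells, which allows a share of up to 4.35%.

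**Figure D1:**
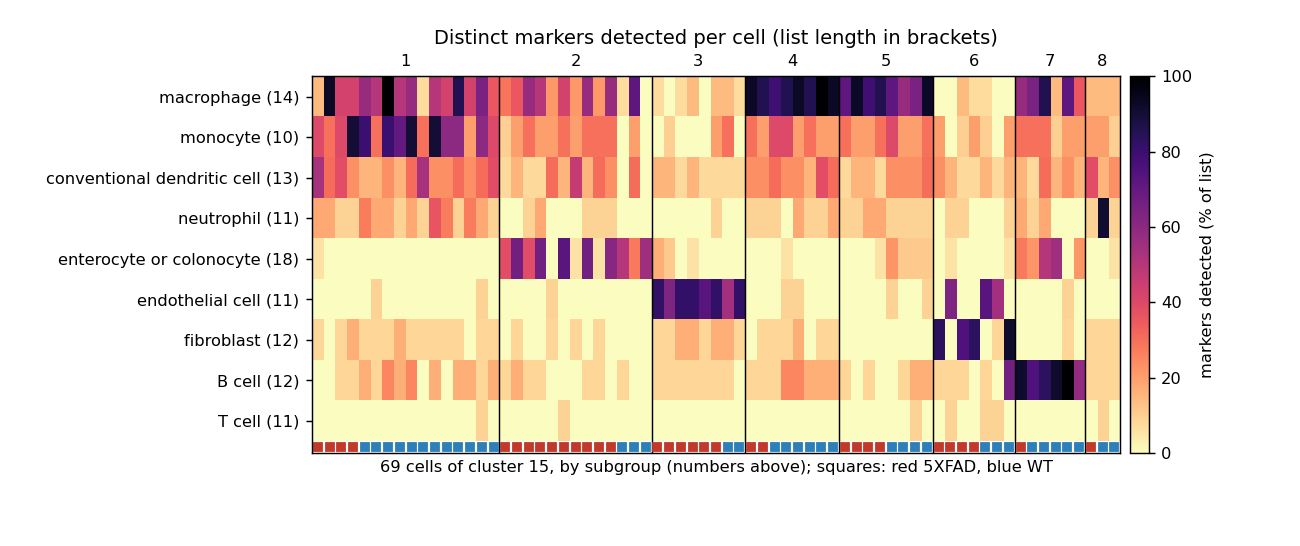
Heat map of the percentage of each marker list (rows, with the number of genes in brackets) that was detected in each of the 69 cells (columns, ordered by subgroup 1 to 8 of a clustering within cluster 15). Squares below give the library, red for 5XFAD and blue for WT; subgroups 4 and 5 have the highest percentages of the macrophage list, subgroup 3 the endothelial list, and subgroups 2 and 7 carry macrophage and colonocyte markers in the same cells.

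The monocyte list, which shares Lyz2 with the macrophage list, was present in 32 cells (13 and 19; 46.4%) against 1.29% elsewhere, and its sum was 7.58-fold higher. The summed neutrophil list was 249-fold higher, with 1647 of its 2053 UMIs from Il1b, and the summed enteroendocrine list 113-fold higher, from 1 WT cell. The conventional dendritic cell list was present in 34 cells (49.3%), in 24.2% of other cells and in 28.4% of B cells (clusters 0 to 5). Its sum stood at 3921 CPM against 758 CPM elsewhere, with 1353 of its 1614 UMIs from Cst3. The defining dendritic cell genes were sparse, with Cd209a in 4 cells (14 UMIs) and Itgae in 3 (8 UMIs). The erythrocyte list had 0 UMIs and the enteric glia or neuron list 2, and 9 of the 12 mast cell markers were at 0. The proliferation list was present in 49 cells (71.0%) and in 67.8% of other cells. Of its genes, Mki67 was found in 5 cells, and 22 of the 24 UMIs of Ube2c were in 1 cell of 5XFAD.

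Of the 69 cells, 24 carried the macrophage list with none of the colonocyte, endothelial, fibroblast, neutrophil, B or T cell lists, 12 in each library. The endothelial list alone was carried by 10 cells (6 in 5XFAD, 4 in WT) and the fibroblast list alone by 3 cells, all of 5XFAD. The macrophage and colonocyte lists were carried together, without the B cell list, by 9 cells, 7 in 5XFAD and 2 in WT. A further 4 cells carried macrophage, colonocyte and B cell lists at once (1 and 3), 5 cells carried macrophage and B cell lists (0 and 5), and 4 carried macrophage and neutrophil lists (0 and 4). The 5 cells with macrophage and B cell lists held 3 to 12 B cell markers, with a median at the limit of 3. Cd79a and Ebf1 were each found in 1 of these 5, whose depth was 6940 to 9373 UMIs. The neutrophil list counts Il1b, G0s2 and Clec4d, which activated macrophages also express. In other clusters 1 of 6817 cells carried the macrophage and colonocyte lists together. No cell carried the endothelial list with the macrophage or the B cell list, and 1 carried it with the colonocyte list. With 32 and 37 cells, these counts by library are values only.

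**Figure D2:**
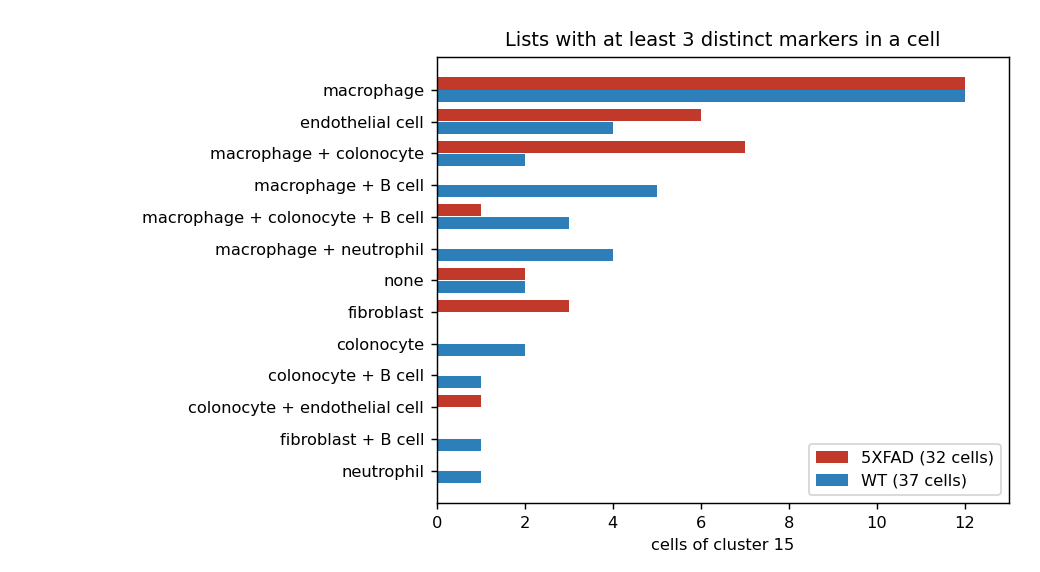
Number of cells of cluster 15 (horizontal axis) for each combination of marker lists present with at least 3 distinct markers (vertical axis), red bars for the 5XFAD library and blue bars for WT. Macrophage markers alone give 12 cells in each library, and macrophage with colonocyte markers give 7 in 5XFAD and 2 in WT. The 2 WT cells hold 6 colonocyte-list UMIs each.

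The 9 cells with macrophage and colonocyte markers held a median of 8 of 14 macrophage and 11 of 18 colonocyte markers. Colonocyte-list UMIs numbered 34 to 293 in the 7 cells of 5XFAD and 6 in each of the 2 of WT. Across the 9 cells, Krt8, an epithelial keratin, ran from 0 to 21 UMIs (median 8). Lgals4, an epithelial galectin, ran from 0 to 19 (median 11), and Apoe from 2 to 63 (median 36). A Ptprc UMI was found in 3 of the 9. Their depth ran from 2502 to 10147 UMIs with a median of 3440, beside a median of 5741 in the whole cluster.

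RNA quality moved with this group. Mitochondrial UMIs had a median of 2.88% in cluster 15 and 4.88% elsewhere, and 12 of 69 cells (17.4%) were under 1% against 4 of 6817. Malat1, a long noncoding RNA that is retained in the nucleus, had a median of 167 UMIs per 10000 in cluster 15 and 326 elsewhere. It was under 20 per 10000 in 21 of 69 cells (14 in 5XFAD, 7 in WT) and in 2 of the 6817 other cells. Both this gene and the limit of 20 were chosen after the values were seen. All 9 cells with macrophage and colonocyte markers were below the limit, as were 10 of the 24 cells with the macrophage list alone and 0 of the 10 with the endothelial list alone. Cells below the limit had a median of 0.991% mitochondrial UMIs and the others 3.59%. Their median depth was 3440 UMIs, and that of the others 6546.5. The part of RNA quality in the joint detection of lineages was not tested.

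**Figure D3:**
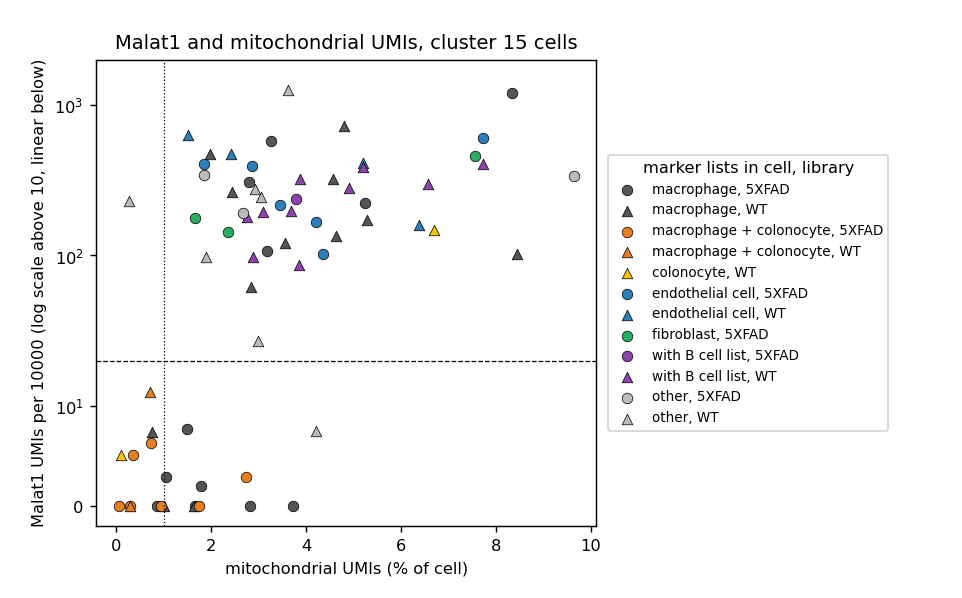
Malat1 UMIs per 10000 UMIs (vertical axis, log scale above 10 and linear below) against mitochondrial UMIs in percent of the cell (horizontal axis) for the 69 cells, with circles for 5XFAD, triangles for WT and colours for the lists present. The dashed line is at 20 and the dotted line at 1%; all 9 cells with macrophage and colonocyte markers lie below the dashed line, and the endothelial and fibroblast cells lie above it.

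Ptprc, which encodes CD45, was read in the same cells. A Ptprc UMI was found in 47 of 69 cells (68.1%), against 94.6% of other cells. It was found in all 24 cells with the macrophage list alone and in 0 of the 11 with the endothelial list. The cells with the fibroblast list alone had 0 of 3. The sort selected the protein on the surface, which these counts do not measure.

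Clustering the 69 cells on their own, with 3002 genes that had at least 20 UMIs, gave a description in 8 subgroups. Subgroup 1 (16 cells, 4 in 5XFAD and 12 in WT) was called monocyte-like from its leading genes. Its leading genes included Ccr2 (51 UMIs in 10 of the 16 cells, and in 1 of the other 53), Plac8, Thbs1, the inducible cyclooxygenase gene Ptgs2 and Clec4e. Lyz2 was present in 16 of 16 cells, with 1 to 194 UMIs, while C1qb was present in 4. The cells were not all alike. The monocyte list was present in 15 of them, the macrophage list in 14 and the conventional dendritic cell list in 13. Among them were a 5XFAD cell and a WT cell with dendritic cell genes, given below with subgroup 2. This subgroup was also the deepest, with a median of 9088.5 UMIs per cell.

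Subgroups 4 and 5 were macrophage-like. Subgroup 4 (8 cells, 2 and 6) was led by the chemokine genes Ccl4 and Ccl12, Rgs1 and C1qb, and C1qb ran from 9 to 68 UMIs per cell. Subgroup 5 (8 cells, 4 and 4) was led by Clec4n, C1qa, Apoe and C1qc, and Apoe ran from 63 to 162 UMIs per cell. Its median depth was 3085 UMIs, and 8 of its 8 cells were below the Malat1 limit, against 0 of 8 in subgroup 4. The macrophage subgroups thus differed in depth and nuclear RNA as well as in genes.

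Subgroup 2 (13 cells, 10 in 5XFAD and 3 in WT) was colonocyte-like, led by a histone gene, Hist1h2ap, and then by Lgals4, Krt19, Fabp2 and Epcam. The colonocyte list was present in 10 of its cells and the macrophage list in 11, and 12 of the 13 were below the Malat1 limit. Of the histone gene's 71 UMIs, 51 were in 1 cell. The same cell held 16 of the 20 proliferation markers. That list summed to 5165 CPM in this subgroup and to 2060 CPM in the whole cluster. In 3 of its 5XFAD cells at least 2 genes typical of type 1 conventional dendritic cells (Clec9a, Batf3 and Itgae) were found, with 93 to 273 Cd74 UMIs and no C1qa. Where found, these genes had 1 to 4 UMIs per cell, while Xcr1, Flt3 and Zbtb46 had 0 in all 3 cells. Of the 3, 1 also held 4 Epcam UMIs. Clec9a, Batf3 and Itgae were among 7 dendritic cell genes looked up after values were seen, of which 6 cells of cluster 15 held at least 2. The others were a WT cell of subgroup 1 (Xcr1, Flt3 and Zbtb46, 190 Cd74 UMIs), a 5XFAD cell of subgroup 1 (8 Cd209a and 2 Zbtb46, 306 Cd74 UMIs) and a 5XFAD cell of subgroup 8 (Flt3 and Cd209a). A WT cell of subgroup 2 held 24 Chgb, 22 Tph1 and 7 Chga UMIs, genes of the hormone-secreting cells of the gut lining. It was 1 of the 2 WT cells with macrophage and colonocyte lists but no B cell list. The colonocyte-like subgroup therefore held markers of several cell types beside those of colonocytes.

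Subgroup 3 (8 cells, 6 and 2) was endothelial-like. Fabp4 was present in 8 of 8 cells with 3 to 81 UMIs, and Plvap, which forms the diaphragms of fenestrated capillaries, in 7 of 8 with 0 to 28 UMIs. Flt1, Ptprb and Esam, genes of vascular endothelium, followed. Plvap had 0 UMIs in all remaining cells of cluster 15. Ebf1, a B cell marker, was also present in this subgroup, while Cd79a had 1 UMI there, so that marker alone does not mark B cells in these data.

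Subgroup 6 (7 cells, 4 and 3) took in different kinds of stroma and was given no name. The fibroblast list was present in 4 of its cells, with Dcn (decorin), Col3a1 and Lum each in 4 of the 7 and in 0 of the others. The other 3 cells, 1 of 5XFAD and 2 of WT, each carried all 7 of the lymphatic endothelial genes looked up after values were seen: Lyve1, Ccl21a, Mmrn1, Prox1, Flt4, Pdpn and Reln. Ccl21a, the chemokine that draws dendritic cells into lymphatics, had 433 UMIs in the 5XFAD cell and 159 and 56 in the WT cells, and 0 in all other cells of the cluster.

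Subgroups 7 and 8 were given no name either. Subgroup 7 (6 cells, 1 and 5) was led by Ly6d, Cd79a, Cd79b and Ebf1. All 6 cells carried the B cell list, 5 carried the macrophage list and 5 the colonocyte list. Their Malat1 and mitochondrial values (median 4.37% mitochondrial UMIs, 0 of 6 below the Malat1 limit) were unlike those of subgroup 2. Subgroup 8 (3 cells, 1 and 2) was led by Il1r2, Cxcl2 and Il1b, and 1 of its WT cells held all 177 UMIs of S100a9 and all 66 of S100a8, the calprotectin genes of neutrophils.

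**Figure D4:**
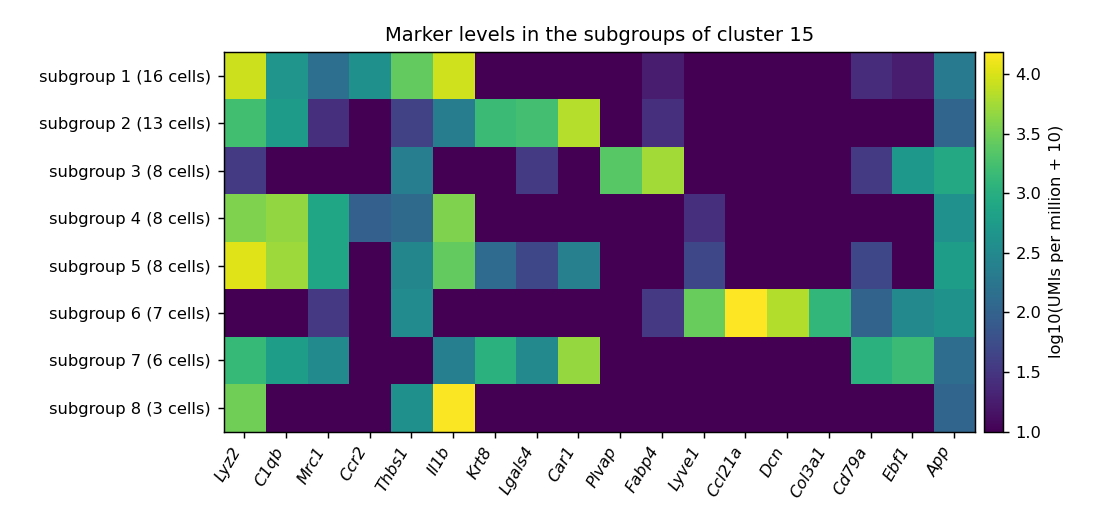
Summed level of selected markers (horizontal axis) in the 8 subgroups of cluster 15 (vertical axis), as log10 of CPM plus 10. Lyz2 is high in subgroups 1, 4 and 5, C1qb in subgroups 4 and 5, Car1 and Krt8 in subgroups 2 and 7, Plvap in subgroup 3, and Ccl21a and Dcn in subgroup 6.

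Several genes linked to Alzheimer disease had most of their UMIs in these few cells. App, the mouse amyloid precursor gene, had 130 of its 227 UMIs (57.3%) in cluster 15, which holds 1.13% of all UMIs. It was found in 42 of 69 cells and 1.31% of other cells. Its level was 316 CPM, and the next cluster, number 16, stood at 34.6 CPM. App UMIs numbered 64 in 5XFAD (19 of 32 cells, 0 to 12 per cell) and 66 in WT (23 of 37 cells, 0 to 6 per cell), so the libraries overlap across their range. App was present in 8 of 8 cells of the endothelial-like subgroup (829 CPM) and 7 of 7 of subgroup 6 (426 CPM), against 5 of 13 cells of the colonocyte-like subgroup (99.3 CPM). Whether RNA of the human transgene was counted as App was not tested.

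Apoe, which encodes the lipid carrier apolipoprotein E, stood at 7420 CPM, and in cluster 6, the next highest, at 2838 CPM. Apoe had 1336 UMIs in 5XFAD (0 to 178 per cell, median 9) and 1718 in WT (0 to 413 per cell, median 14). It reached 35970 CPM in subgroup 5 and 19032 CPM in subgroup 4, and 341 CPM in the endothelial-like subgroup. Of Trem2, a lipid-sensing receptor of macrophages and microglia, 16 of 20 UMIs lay in cluster 15, and of Clu, a secreted chaperone, 23 of 26.

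**Figure D5:**
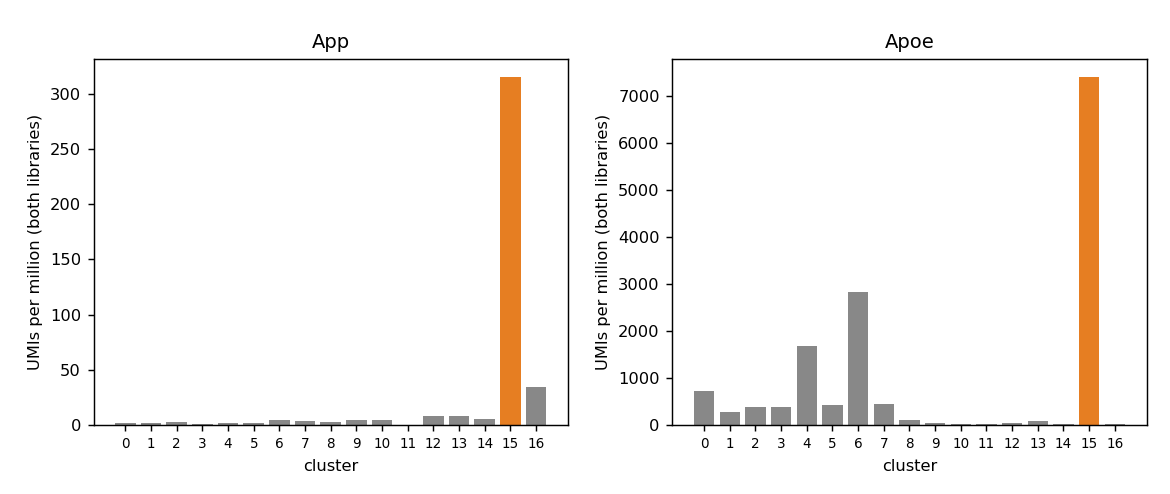
Level of App (left) and Apoe (right) in CPM, both libraries summed (vertical axes, from 0), in each of the authors' clusters 0 to 16 (horizontal axes), with cluster 15 in orange. App stands at 316 in cluster 15 and at most 34.6 elsewhere, and Apoe at 7420 in cluster 15 and 2838 in cluster 6.

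Between the libraries, values were compared as the log2 ratio of CPM, 5XFAD over WT, for the 3002 genes with at least 20 UMIs. Of these, 735 (24.5%) lay 2-fold or more apart, 293 higher in 5XFAD (9.76%) and 442 lower (14.7%), and the median was −0.09. The genes with the firmest counting intervals were carried by a few cells. Apod had 209 UMIs in 5XFAD, all in 1 fibroblast-list cell, and 0 in WT. Adamdec1, a metalloprotease gene of gut stroma and macrophages, had 128 UMIs in 5XFAD, of which 116 were in 1 fibroblast-list cell, and 2 in WT. Iigp1, an interferon-inducible GTPase, had 92 UMIs in 8 cells of 5XFAD and 5 in 2 cells of WT (log2 ratio 4.41, interval 3.14 to 6.07). The 5 cells with the most Iigp1 were endothelial cells by their lists. Selp (P-selectin, 43 against 1 UMIs) was found in cells with the endothelial list alone. Cxcl12 (122 against 10) was highest in a cell with the endothelial list (55 UMIs), followed by a cell with the fibroblast list (32 UMIs).

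The genes lowest in 5XFAD all had 0 UMIs there, so their ratios are bounds set against a floor of 3 counts over the library. S100a9 (177 UMIs) and S100a8 (66) came from 1 WT cell, and were at least 50.9-fold and 19.0-fold lower in 5XFAD. Mgp, a matrix protein gene, had 76 UMIs in 3 WT cells, Acod1, the itaconate-making enzyme of activated myeloid cells, 47 in 3, and Reg4, a gene of secretory epithelium, 26 in 2. Of the Mgp UMIs, 40 were in a cell with the endothelial list and 35 in a cell with the fibroblast and B cell lists. A single cell held 38 of the Acod1 UMIs, and a single cell 25 of those of Reg4.

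Marker lists differed between the libraries, and their values stand here beside the number of cells that carried them. All 10 measured colonocyte markers were higher in 5XFAD, 8 of them by 2-fold or more beside 9.76% of all 3002 genes, with a median log2 ratio of 1.83. Without the cells below the Malat1 limit, 8 of 9 were lower in 5XFAD, with a median of −1.28. That left 7 cells with the colonocyte list. Those of 5XFAD were 1 cell that also carried the endothelial list (3 colonocyte-list UMIs) and 1 that also carried macrophage and B cell lists (51). Of the 10 endothelial markers 9 were higher in 5XFAD (median 2.11), where 7 cells carried the list against 4. All 7 B cell markers were lower in 5XFAD (median −1.30), where 1 cell carried the list against 10. Of those 10, 5 were the cells with macrophage and B cell lists, at a median of 3 B cell markers. Without the cells that carried the B cell list, 5 of 7 markers were lower (median −0.27).

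Of 13 macrophage markers 12 were lower in 5XFAD, with a median of −0.75. Among the 24 cells with the macrophage list alone, 7 of 13 were lower and the median was −0.03. Lyz2 went from −0.79 over all cells to 0.05 in these, and Cd14 from −0.95 to 0.27. These cells were unlike in the libraries: 3 of the 12 in 5XFAD and 0 of the 12 in WT were the cells with dendritic genes and no C1qa, and 7 and 3 were below the Malat1 limit. Without those 3 cells, a comparison added after the values were seen, 10 of 13 macrophage markers stood higher in 5XFAD (median 0.36). The 3 cells held 3 of the 14 macrophage markers each, so leaving them out raises the 5XFAD values by the choice itself. The macrophage median therefore depended on the cells taken, and no direction is read from it. All 8 measured monocyte markers were lower in 5XFAD over all cells (median −1.51), where the monocyte-like subgroup had 4 cells against 12 in WT. The 4 cells of cluster 15 with 2500 genes or more were all WT cells of that subgroup. No 5XFAD cell of the series had as many genes, and what this adds to the ratios was not tested. That subgroup also held a 5XFAD and a WT cell with at least 2 dendritic cell genes. In the cells with the macrophage list alone, 3 of 5 measured monocyte markers were lower. In bulk sums of this kind fewer cells of a type and less RNA per cell cannot be told apart.

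Within the cells that carried the macrophage list alone, 12 in each library, 252 of 1025 genes (24.6%) lay 2-fold or more apart, 88 of them higher in 5XFAD (8.59%) and 164 lower (16%). The 5XFAD cells had a median of 4261 UMIs and the WT cells 7853.5. Higher in 5XFAD were Il10, the anti-inflammatory cytokine gene (30 UMIs in 2 cells, 29 of them in 1, against 1), Hilpda, a hypoxia-inducible lipid droplet gene (49 against 6), Il1a, Ppt1 and Cxcl10. Lower were Plac8 (11 UMIs in 5 cells against 134 in 6), Nr4a2 (0 against 24), the phosphatase gene Ptpn1 (7 against 64), the transcription factor gene Klf4 (5 in 3 cells against 48 in 9) and the scaffold gene Iqgap1 (18 in 5 cells against 108 in 11). Klf4, Ptpn1 and Iqgap1 were spread over 9 to 11 WT cells, whereas most UMIs of Il10, Hilpda and Il1a came from 1 cell each.

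Functional lists with at least 5 measured genes had medians between −0.56 and 0.09, beside −0.09 for all measured genes. For antigen presentation by MHC class II the median was 0.09 (5 of 10 members higher), and 0.55 in the cells with the macrophage list alone. Those include the 3 cells of 5XFAD with dendritic genes, and without them it was 0.62. H2-Eb1 had 1282 UMIs in 23 cells of 5XFAD and 1083 in 28 cells of WT (0.46, interval 0.34 to 0.57). Of 18 lysosome and phagocytosis genes 12 were lower (median −0.14), among them Lamp1 (−1.05) and Tyrobp, an adaptor of TREM2 (−0.91). In the cells with the macrophage list alone 10 of 17 were higher (median 0.16, and 0.50 without the 3 cells), and Tyrobp stood at −0.43. Of the disease-associated microglia genes, known from microglia around amyloid plaques, 7 of 9 were lower (median −0.15), while with the macrophage list alone 4 of 7 were higher (median 0.05, and 0.45 without the 3 cells). Chemokines and cytokines stood at a median of −0.54, with Ccl6 at −1.55 and Tgfb1 at −1.28, but at 0.34 in the cells with the macrophage list alone and 0.73 without the 3. The type I interferon genes had a median of −0.48 over 6 genes, with Ifi27l2a at −0.73. The immediate early genes, which also respond to tissue dissociation, had a median of 0.08 (15 of 28 higher). In the cells with the macrophage list alone it was −0.55, and −0.24 without the 3 cells. Of 16 Alzheimer risk gene orthologues 12 were lower in 5XFAD (median −0.56), Ptpn6 (8 against 36 UMIs) and Sorl1 (5 against 17) the most. Of the 16, 0 were 2-fold or more higher (beside 9.76% of all genes) and 3 were 2-fold or more lower (beside 14.7%). In the cells with the macrophage list alone 3 of 6 were higher (median −0.15).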

How the data were processed

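Reads were processed with Cell Ranger 6.0.1 against mm10, per the submitters' processing notes; cell filters are not stated there. The deposited table holds natural log values, ln(1 + UMIs per 10000), made by the authors. The deposited cell table gives each cell's total UMI count, percent of mitochondrial UMIs and cluster number. Counts were recovered with those totals: 100% of 11758401 nonzero values were whole within 1e-06, and sums matched in 6886 of 6886 cells. The library named AD in the files was taken as 5XFAD, since it is the only one that is not WT. The deposited SCT table (14128 genes, also natural log values) served as an alternative.

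The members, gene lists and rule for named genes were chosen with earlier results of these data known. UMIs were summed per group of cells and scaled to CPM. Ratios have exact conditional binomial 95% intervals, and a floor of 3 counts where a library had 0. Named genes are the 20 leading genes by the lower bound (at least 50 UMIs, 10 cells, both libraries), the 10 lowest (at least 100 CPM elsewhere), the markers with most UMIs, the 5 higher and 5 lower genes between libraries, and the extremes of each list; some genes these rules select are not reported here. The same rule of 5 and 5 was applied to the cells with the macrophage list alone after their values were seen. Immunoglobulin and T cell receptor segments, ribosomal, mitochondrial and Gm or Rik genes were left out, as were sex-linked genes between libraries. Subgroups are Ward clusters on 10 principal components; their number, 8, was chosen after seeing the data. On counts simulated for 3002 genes with counting error alone (Poisson), as the intervals assume, 96.3% of intervals held the true ratio. Spread between cells was not simulated, so this checks the calculation only. Of changed genes, 52.0% (log2 of 1) and 96.0% (log2 of 2) lay on the right side. Gene positions are from GENCODE M21. Python 3.11.15, numpy 2.4.6, scipy 1.17.1, pandas 2.3.3 and scanpy 1.11.5 were used. Alternatives changed the comparison group, scaling, depth, marker minimum and cells.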

Additional observations from a re-analysis of the deposited data

How the results depend on the processing

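The summed lists stayed above the rest under each alternative run, though most ratios moved beyond their counting interval. The macrophage log2 ratio of 4.94 was 2.67 against the highest other cluster, 5.12 as a mean of per-cell CPM, 5.06 in the SCT table, 4.83 without the richest cell, 4.35 in 5XFAD alone, 5.57 in WT alone and 4.75 without Malat1-poor cells (under 20 Malat1 UMIs per 10000). The colonocyte ratio of 6.92 was, in the same order, 4.93, 7.52, 7.28, 6.52, 7.36, 6.18 and 5.37. The endothelial ratio of 4.65 was 3.87 against the highest other cluster, 4.44 without the richest cell, 5.67 in 5XFAD, 3.51 in WT, 4.95 without B-list cells and 4.98 without Malat1-poor cells. The fibroblast ratio of 6.03 was, in that order, 5.67, 5.48, 6.77, 5.16, 5.88 and 6.36. Without Malat1-poor cells, 26 cells kept the macrophage list and 7 the colonocyte list, because 21 cells were left out. Thinned to 3000 UMIs, which 60 cells reached, 11 cells had the colonocyte list and 7 the B cell list. With 2 markers, 11 cells had the fibroblast list and 23 the B cell list.

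In the cells with the macrophage list alone, the MHC class II median was 0.55, that of immediate early genes −0.55 and that of chemokines and cytokines 0.34. Without the 3 of them with at least 2 dendritic cell genes, the median was 0.62 for MHC class II and −0.24 for immediate early genes. It was then 0.50 for lysosome and phagocytosis, 0.73 for chemokines and cytokines and 0.45 for disease-associated microglia genes. Dnajb1, at 1.11 over all cells, was −0.12 without the richest cell of each library and −1.63 in the macrophage-list cells. The cause of these changes was not tested. With genes of at least 50 UMIs, 64 of 69 cells fell in matching subgroups. Median-of-ratios scaling moved all ratios by 0.09. The Malat1, B-list, macrophage-list and dendritic-gene exclusions were chosen after seeing the data. No paired analysis was possible because each genotype is 1 pooled library, so the groups share fewer than 2 replicate numbers. Counting error alone is covered, and 52.0% of 2-fold changes simulated without spread between cells were resolved at this depth.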
